A study of Mus musculus with 4 samples.

Results

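Solute carriers are the large set of membrane proteins named Slc, and the genes described here are those expressed in mouse hematopoietic stem cells of 2 genotypes, wild type and Dis3-/-. They were chosen by symbol (Slc followed by a digit) and by a sum of at least 200 expected counts over the 4 libraries, leaving out Slc2a1 and the Slc15a genes. The rule took 158 of the 24411 genes in the table. It used only the sum over both genotypes, not the difference between them. Just inside it stood Slc9a5 with a sum of 201 counts, Slc22a18 with 209 and Slc30a6 with 212, and just outside Slc22a23 with 188 and Slc6a9 with 186. Of 373 symbols of this pattern, 6 were left out by name, 73 had no count and 136 had a sum from 1 to under 200.

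Wild-type cells came from Dis3fl/fl donors without Cre and Dis3-/- cells from Dis3fl/fl;Mx-Cre donors, all C57BL/6, with 2 libraries a genotype. Donor marrow of either genotype was placed into CD45.1 hosts after lethal irradiation, and 4 weeks later 300 µg of the interferon inducer pIpC was injected on days 0 and 2. The Mx promoter that drives Cre answers to interferon and is active in many cell types besides stem cells. That wild-type hosts received pIpC is read from a protocol shared by both genotypes, and Cre is present only in the Dis3-/- group, per the labels. Lineage-negative, EPCR+, CD150+, CD48- cells were sorted on day 4, 100 to a library, and sequenced by RamDA-seq, which reads total RNA over the full transcript length. Dis3 encodes a catalytic subunit of the RNA exosome, which degrades RNA from its 3′ end. The comparison asks how transcript levels differ once Dis3 is targeted.

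Solute carriers move small molecules across membranes along gradients or by exchange, without using ATP directly. Those at the cell surface bring in amino acids, sugars, nucleosides, metals and vitamins. Most of the Slc25 family sits in the inner mitochondrial membrane, and the Slc35 family brings nucleotide sugars into the Golgi and endoplasmic reticulum. The Slc30 and Slc39 families move zinc out of and into the cytosol. In stem cells, amino acid import and the lysosomal carriers that report amino acid supply to the kinase mTORC1 act on the balance between quiescence and growth.

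Libraries held 6085367 to 6818535 counts and 14785 to 14874 genes above 0, and the solute carriers took 0.933% to 0.996% of counts. Dis3 had 388 and 335 counts in wild-type libraries and 140 and 193 in Dis3-/- libraries (log2 fold change -1.02 ± 0.14 SE, edgeR adjusted p = 2.58e-04); which exons loxP sites flank was not given in the sources used here. The sort marker genes Procr and Slamf1 were at 41.8 ± 1.83 against 43.0 ± 4.18 CPM and 24.6 ± 8.13 against 23.1 ± 2.92 CPM, wild type against Dis3-/-. A list of 12 stem cell genes, none at 0, summed to 3840.4 and 3423 against 2765 and 2735 CPM, and 1 was called higher and 5 lower. DESeq2 called 4 of the 12. By edgeR 12.7% of all tested genes were called higher and 10.2% lower. Among markers of other cells, summed levels in wild-type and then Dis3-/- libraries were 83.3 and 94.5 against 96.1 and 67.2 CPM for 9 erythroid genes (Car1 and Hbb-bs at 0) and 199 and 217 against 200.5 and 189.5 CPM for 8 monocyte genes (Ly6c2 at 0). They were 65.1 and 89.6 against 84.2 and 66.3 CPM for 8 T and NK cell genes (Cd3e, Cd3g and Il7r at 0) and 14.8 and 16.7 against 12.6 and 14.1 CPM for 7 B cell genes (Ebf1 and Ms4a1 at 0). For 9 granulocyte genes (Ctsg at 0) they were 35.6 and 30.6 against 24.4 and 21.7 CPM, for 6 megakaryocyte genes 84.3 and 68.3 against 70.2 and 59.6 CPM and for 8 endothelial and stromal genes 164 and 158 against 97.6 and 92.1 CPM. Single genes held most of several sums. Lyz2 was at 190 against 174 CPM among the monocyte genes and Nkg7 at 72.7 against 72.9 CPM among the T and NK cell genes. Pecam1 was at 111 against 69.9 CPM among the endothelial and stromal genes (means, wild type against Dis3-/-). Csf1r, Cd14, Adgre1, C1qa and C1qb had at most 9 counts in a library, and Cdh5, Cxcl12, Lepr and Col1a1 at most 3. Called genes of these lists were Gata1 of 4 tested erythroid genes (log2 fold change -2.01 ± 0.32, edgeR adjusted p = 6.64e-04) and Pdgfrb and Pecam1 of 4 tested endothelial and stromal genes (log2 fold change -1.88 ± 0.26, edgeR adjusted p = 2.00e-04, and log2 fold change -0.67 ± 0.10, edgeR adjusted p = 3.78e-04). Prtn3 was the call among 2 tested granulocyte genes (log2 fold change -0.67 ± 0.18, edgeR adjusted p = 0.0141, with an adjusted p of 0.127 without wild-type replicate 1 and 0.0646 without Dis3-/- replicate 2). Treml1 was the call among 4 tested megakaryocyte genes, with 26 and 16 counts against 1 and 4 (log2 fold change -2.91 ± 0.72, edgeR adjusted p = 0.0105, with an adjusted p of 0.0999 without wild-type replicate 1 and 0.0965 without Dis3-/- replicate 1). A list of 15 mitosis and S phase genes summed to 1530.3 and 1608 CPM in the wild-type and 3113 and 3167 CPM in the Dis3-/- libraries, and 15 of 15 were called higher (median log2 fold change 1.47). The part of these genes in the carrier results was not tested. In such bulk samples, fewer cells of a type and less RNA per cell cannot be told apart. Replicates are given as 2 mice a genotype, with no more on how they were separated, so p-values measure only the spread between these libraries.

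Promoter sequences are shown for 4 carriers on which the results turn: Slc16a1 and Slc25a5, which were higher in Dis3-/- cells, and Slc38a9 and Slc18a2, which were lower. Each is the 250 bases before the listed start on the plus strand, from RefSeq (GRCm38.p6), read 5′ to 3′, and capitals mark the E-box CACGTG or the GC box GGGCGG on either strand.
Slc16a1 (chr3:104638414-104638663): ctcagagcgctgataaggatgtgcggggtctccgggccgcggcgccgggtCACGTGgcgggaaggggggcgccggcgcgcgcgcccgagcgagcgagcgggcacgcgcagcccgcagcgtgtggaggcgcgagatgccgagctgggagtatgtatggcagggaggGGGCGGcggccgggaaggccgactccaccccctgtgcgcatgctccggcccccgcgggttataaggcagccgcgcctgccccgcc
Slc25a5 (chrX:36795347-36795596): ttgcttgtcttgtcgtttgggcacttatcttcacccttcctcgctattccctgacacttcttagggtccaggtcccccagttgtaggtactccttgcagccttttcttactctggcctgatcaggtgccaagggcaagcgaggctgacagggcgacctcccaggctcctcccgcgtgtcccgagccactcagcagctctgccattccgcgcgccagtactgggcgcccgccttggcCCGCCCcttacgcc
Slc38a9 (chr13:112660516-112660765): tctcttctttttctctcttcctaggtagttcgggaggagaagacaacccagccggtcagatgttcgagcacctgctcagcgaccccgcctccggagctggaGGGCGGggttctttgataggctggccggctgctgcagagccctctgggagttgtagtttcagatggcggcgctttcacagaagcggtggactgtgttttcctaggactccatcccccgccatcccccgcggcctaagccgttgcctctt
Slc18a2 (chr19:59260628-59260877): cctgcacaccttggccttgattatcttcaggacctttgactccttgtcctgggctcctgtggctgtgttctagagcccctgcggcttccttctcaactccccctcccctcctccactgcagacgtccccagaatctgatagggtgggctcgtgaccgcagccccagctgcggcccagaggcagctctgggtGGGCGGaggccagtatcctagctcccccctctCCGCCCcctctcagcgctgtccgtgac
The Slc16a1 sequence held an E-box that begins 200 bases before the start and a GC box that begins 85 bases before it. Slc25a5 held 1 GC box, 14 bases before the start, and Slc38a9 held 1, 149 bases before a listed start that lies inside the annotated gene. Slc18a2 held 2, 27 and 59 bases before the start.

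Of the 158 carrier genes, 11 rose and 21 fell in Dis3-/- cells, and 126 did not pass the test (edgeR quasi-likelihood, Benjamini-Hochberg adjusted p under 0.05 over all 12244 tested genes). The shares were 6.96% higher and 13.3% lower, 20.3% in all. Over all tested genes they were 12.7% higher and 10.2% lower, 23.0% in all, and over the 9936 tested genes with the same sum of at least 200 counts 14.2% and 11.6%, 25.9% in all. The called share of carriers was thus near the background, with fewer rises and somewhat more falls. The median log2 fold change of the carriers was -0.048, against -0.0027 for all tested genes. Values ran from -1.27 for Slc7a8 to 0.94 for Slc9a5, which did not pass. Genotypes did not overlap in CPM for 36 carriers higher (22.8%) and 57 lower (36.1%), where all tested genes gave 31.9% and 30.5%. A called fall to at most -1 was found for 3 carriers, Slc7a8, Slc26a11 and Slc38a9, and a called rise of at least 1 for none by edgeR, with 19 carriers above 0 at an unadjusted p under 0.05; among all tested genes 1.56% and 2.72% were so called. All 158 passed the filter on low counts. The 5 carriers with under 100 counts in a genotype (Slc23a1, Slc25a42, Slc22a18, Slc9a5 and Slc30a6) were not called. Counts of calls depended on the test: DESeq2 gave 4 higher and 10 lower (919 and 651 of all genes) and limma on log2(TPM + 1) 4 and 13 (805 and 973 of all genes). With single libraries left out, no more carriers were called in either direction, and fewer of all tested genes.

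**Figure D1:**
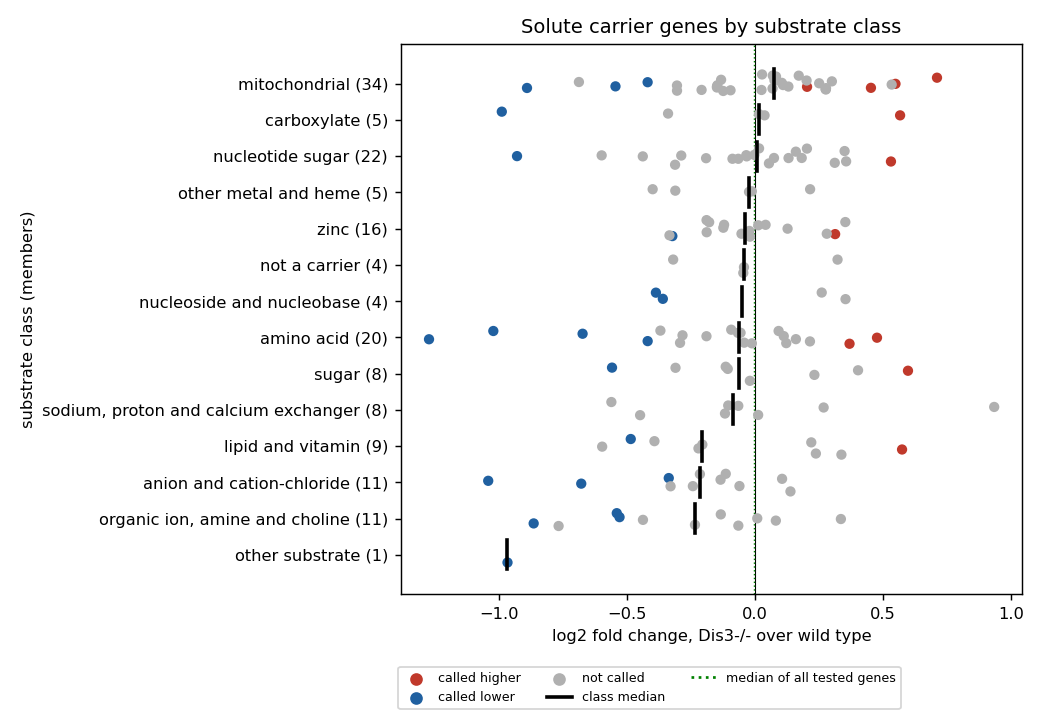
Each point is a carrier gene, placed by its log2 fold change (Dis3-/- over wild type, x axis) within its substrate class (y axis, with the number of genes); red and blue mark genes called higher or lower by edgeR, grey those not called, and black bars the class medians. The class medians run from 0.074 for the mitochondrial carriers to -0.23 for the organic ion carriers and -0.97 for the single urea carrier, and called genes of both directions stand in most larger classes.

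Amino acid carriers changed in both directions. Of 20 genes, 2 rose (Slc7a5, Slc7a1) and 4 fell (Slc38a9, Slc7a8, Slc16a10, Slc43a2), with a class median of -0.06. These were 10% and 20% of the class, against 12.7% and 10.2% of all tested genes. Slc38a9, the lysosomal carrier that reports arginine to mTORC1 (chromosome 13, 112656189 to 112738752, mm10), stood at 110.2 and 104 CPM in the wild-type and 52.3 and 53.0 CPM in the Dis3-/- libraries. Both Dis3-/- libraries lay well below the wild-type ones, 107 ± 4.72 against 52.7 ± 0.468 CPM (mean ± SD, n = 2) (log2 fold change -1.02 ± 0.10, edgeR adjusted p = 1.65e-05; ± is the SE). Slc7a8, the light chain LAT2 for neutral amino acids (chromosome 14, 54722215 to 54781886), stood at 49.8 and 65.1 CPM in the wild-type and 23.7 and 23.8 CPM in the Dis3-/- libraries (log2 fold change -1.27 ± 0.15, edgeR adjusted p = 7.71e-05). This was the lowest log2 fold change of the carriers, and its wild-type replicates differed from each other more than the Dis3-/- replicates did.

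Slc7a5, the light chain LAT1 that imports leucine and other large neutral amino acids (chromosome 8, 121881146 to 121907686), moved the other way, with 116 and 121 CPM in the wild-type and 176 and 154 CPM in the Dis3-/- libraries. Its mean was 118 ± 3.56 against 165 ± 14.9 CPM (mean ± SD, n = 2) (log2 fold change 0.48 ± 0.09, edgeR adjusted p = 0.00195), and the genotypes did not overlap. Slc3a2, the heavy chain that LAT1 and LAT2 both bind, stood at 139.9 and 155 against 162 and 158 CPM (log2 fold change 0.12 ± 0.085, edgeR adjusted p = 0.329, 95% interval -0.06 to 0.31). Slc7a6, a further light chain of that heavy chain, did not pass either (log2 fold change 0.16 ± 0.10, edgeR adjusted p = 0.251). Per length, the ratio of Slc7a5 to Slc7a8 in TPM was 2.69 and 2.15 in wild-type libraries and 8.54 and 7.50 in Dis3-/- libraries, while the sum of Slc7a5, Slc7a6 and Slc7a8 was 176 and 186 in wild-type libraries and 195 and 177 in Dis3-/- libraries (TPM). The genotypes did not overlap in the ratio and overlapped in the sum. Slc7a5 and Slc7a8 each separated the genotypes, in opposite directions, so the outcome of their ratio was fixed beforehand and adds no evidence. Ratios carry no test here, since an exact 2-sided permutation of 2 against 2 libraries cannot go below p = 0.333.

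Slc7a1, the importer of the cationic amino acids arginine and lysine (chromosome 5, 148327410 to 148399904), stood at 85.9 and 90.8 CPM in the wild-type and 124 and 104 CPM in the Dis3-/- libraries (log2 fold change 0.37 ± 0.10, edgeR adjusted p = 0.0183). Its adjusted p in edgeR became 0.0848 (0.33) without wild-type replicate 1 and 0.15 (0.25) without Dis3-/- replicate 1, log2 fold changes in parentheses. Slc16a10, a carrier of aromatic amino acids, stood at 16.1 and 15.1 against 9.09 and 10.5 CPM (log2 fold change -0.67 ± 0.22, edgeR adjusted p = 0.0417). For Slc16a10 the edgeR adjusted p was 0.157 (-0.62) without wild-type replicate 1, 0.0837 (-0.72) without wild-type replicate 2, 0.163 (-0.57) without Dis3-/- replicate 1 and 0.069 (-0.78) without Dis3-/- replicate 2. Slc43a2, the carrier LAT4, stood at 72.9 and 102 against 67.7 and 62.9 CPM (log2 fold change -0.42 ± 0.14, edgeR adjusted p = 0.042). Only wild-type replicate 2 was far above the Dis3-/- libraries for that gene, and its edgeR adjusted p was 0.00106 (-0.64) without wild-type replicate 1, 0.473 (-0.16) without wild-type replicate 2 and 0.125 (-0.36) without Dis3-/- replicate 2. Glutamine carriers were among the most abundant of the class per length and did not pass: Slc38a2, with the highest mean TPM of the class (179), stood at 357 and 402 against 324 and 341 CPM (log2 fold change -0.19 ± 0.079, edgeR adjusted p = 0.101). Slc1a5 stood at 135 and 148 against 162 and 167 CPM (log2 fold change 0.22 ± 0.085, edgeR adjusted p = 0.0828), and Slc38a1 did not pass (log2 fold change -0.011 ± 0.077, edgeR adjusted p = 0.938, 95% interval -0.18 to 0.15). Slc1a4, an importer of small neutral amino acids, had 28, 90, 86 and 32 counts in wild-type replicates 1 and 2 and Dis3-/- replicates 1 and 2, so its replicates differed by more than its genotypes.

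Around the lysosomal amino acid sensor, 26 of 28 listed genes were tested and 3 rose and 3 fell (median 0.10). That called share was near the 23.0% of all tested genes (12.7% higher and 10.2% lower). Among rises, Sec13, a subunit of GATOR2, stood at 43.2 ± 3.33 against 67.0 ± 3.39 CPM (log2 fold change 0.63 ± 0.12, edgeR adjusted p = 0.00179), and Lamtor3, of the Ragulator complex that anchors mTORC1, at 16.0 ± 1.21 against 27.6 ± 3.84 CPM (log2 fold change 0.79 ± 0.18, edgeR adjusted p = 0.00632). The other rise was Lamtor2 (log2 fold change 0.89 ± 0.29, edgeR adjusted p = 0.0421). Falls were found for 2 of the 3 sestrins, stress-induced proteins that restrain mTORC1: Sesn1 with 128 ± 15.4 against 92.5 ± 1.60 CPM (log2 fold change -0.47 ± 0.10, edgeR adjusted p = 0.00414) and Sesn3 with 48.6 ± 0.715 against 29.8 ± 6.13 CPM (log2 fold change -0.71 ± 0.15, edgeR adjusted p = 0.00414). Sesn2, the third, did not pass and stood at 17.9 ± 1.13 against 21.1 ± 2.46 CPM (log2 fold change 0.24 ± 0.18, edgeR adjusted p = 0.387). The other fall was Flcn (log2 fold change -0.35 ± 0.093, edgeR adjusted p = 0.0146). With single libraries left out, the edgeR adjusted p of Lamtor3 was 0.053 without Dis3-/- replicate 2. That of Lamtor2 was 0.0685 without wild-type replicate 1, 0.178 without wild-type replicate 2, 0.0813 without Dis3-/- replicate 1 and 0.162 without Dis3-/- replicate 2, and that of Flcn 0.0934 without wild-type replicate 2 and 0.0678 without Dis3-/- replicate 2.

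**Figure D2:**
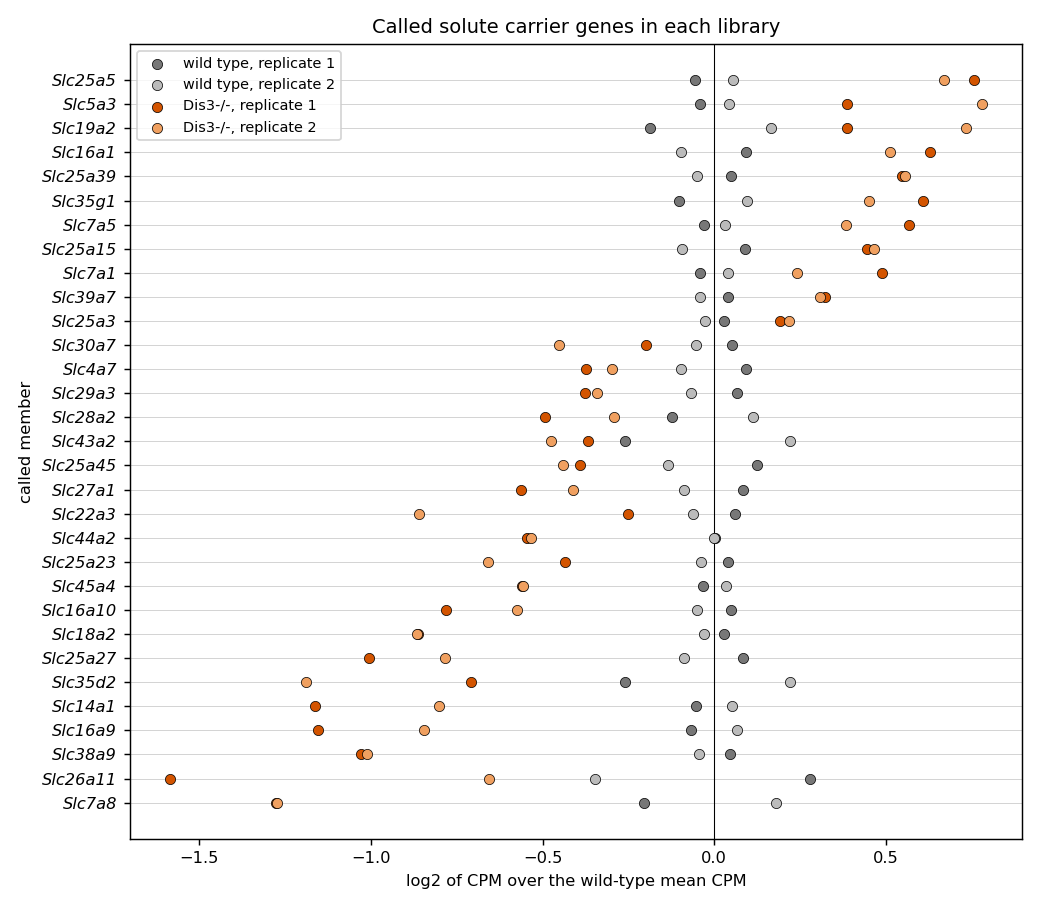
For the called carriers named in the text (y axis), points give the log2 ratio of each library's CPM to the wild-type mean CPM (x axis); greys are wild-type and oranges Dis3-/- libraries. The 11 genes at the top lie to the right in both Dis3-/- libraries and those below lie to the left, and the spread between replicates is widest for Slc26a11, Slc22a3, Slc35d2 and Slc43a2.

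Nucleoside and nucleobase carriers numbered 4, and all stood at an unadjusted p under 0.05 in edgeR, 2 above and 2 below 0. After adjustment 2 fell and none rose (DESeq2 called 0 of the 4). By edgeR 10.2% of all tested genes fell and 12.7% rose. Slc28a2, which imports purine nucleosides together with sodium, stood at 70.0 and 82.4 CPM in the wild-type and 54.2 and 62.2 CPM in the Dis3-/- libraries (log2 fold change -0.39 ± 0.12, edgeR adjusted p = 0.0314). For Slc28a2 the edgeR adjusted p was 0.223 (-0.27) without wild-type replicate 2 and 0.14 (-0.29) without Dis3-/- replicate 1. Slc29a3, a lysosomal equilibrative nucleoside transporter, stood at 62.4 and 56.9 CPM in the wild-type and 45.9 and 47.1 CPM in the Dis3-/- libraries (log2 fold change -0.36 ± 0.12, edgeR adjusted p = 0.0398). For Slc29a3 the edgeR adjusted p was 0.214 (-0.29) without wild-type replicate 1, 0.114 (-0.34) without Dis3-/- replicate 1 and 0.0842 (-0.37) without Dis3-/- replicate 2. The genotypes did not overlap for either gene, but both calls ended without some single libraries. Slc29a1, the surface equilibrative nucleoside transporter, stood at 47.8 and 52.9 against 69.8 and 58.9 CPM (log2 fold change 0.35 ± 0.12, edgeR adjusted p = 0.0523, 95% interval 0.091 to 0.62). Slc43a3, a purine nucleobase carrier and the most abundant of the 4 per length, stood at 69.4 and 76.7 against 93.6 and 81.6 CPM (log2 fold change 0.26 ± 0.11, edgeR adjusted p = 0.0939). The ratio of Slc29a1 to Slc28a2 in TPM was 1.39 and 1.29 in wild-type libraries and 2.60 and 1.91 in Dis3-/- libraries, with no overlap. That follows from the opposite moves of both genes, each without overlap, and adds no evidence. The class summed to 201 and 215 in wild-type libraries and 212 and 199 in Dis3-/- libraries (TPM), where genotypes overlapped. Its median was -0.049, and it turned to 0.032 without wild-type replicate 2. Under the replicate number as a block, Slc29a3 was not called (edgeR adjusted p = 0.0576).

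Mitochondrial carriers, taken by family name (Slc25), were the largest class, with 34 genes, of which 4 rose (11.8%), 3 fell (8.82%) and 27 did not pass. Over all tested genes the shares were 12.7% and 10.2%. The class median was 0.074 with 21 genes above 0 on counts, but -0.038 on the log2(TPM + 1) scale, where the median of all tested genes was -0.106. Slc25a5, the adenine nucleotide translocase ANT2 that exchanges ADP for ATP (chromosome X, 36795597 to 36798808), moved from 296 and 319 to 519 and 488 CPM. Its mean was 308 ± 16.5 against 504 ± 21.5 CPM (mean ± SD, n = 2), a fold of 1.64 (log2 fold change 0.71 ± 0.074, edgeR adjusted p = 2.46e-05). By mean TPM over the 4 libraries it was the most abundant carrier per length, at 605 and 642 TPM in the wild-type and 962 and 932 TPM in the Dis3-/- libraries. Slc25a3, the phosphate carrier, came next at 768 and 727 TPM in the wild-type and 781 and 817 TPM in the Dis3-/- libraries, so the order of the pair differed between the genotypes. Slc25a4, the translocase ANT1, stood at 61.1 and 58.1 against 78.1 and 69.0 CPM (log2 fold change 0.30 ± 0.11, edgeR adjusted p = 0.0637). The TPM ratio of Slc25a5 to Slc25a4 was 4.05 and 4.59 in wild-type libraries and 5.56 and 5.92 in Dis3-/- libraries. On counts, Slc25a3 stood at 446 and 429 against 500.2 and 509 CPM (log2 fold change 0.20 ± 0.067, edgeR adjusted p = 0.0421). Its rise was small, and the edgeR adjusted p was 0.0973 (0.23) without wild-type replicate 1, 0.205 (0.17) without wild-type replicate 2, 0.0583 (0.22) without Dis3-/- replicate 1 and 0.0977 (0.20) without Dis3-/- replicate 2; with the replicate block it was 0.0812.

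The summed level of the class was 2757 and 2689 in wild-type libraries and 2990.0 and 3051 in Dis3-/- libraries (TPM), or 35.2% and 34.8% of all carrier TPM against 40.4% and 40.4%. Without Slc25a5 the sum was 2152 and 2047 in wild-type libraries and 2028 and 2119 in Dis3-/- libraries, where genotypes overlapped. Without Slc25a5, Slc25a3 and Slc25a4 it was 1234 and 1179.8 in wild-type libraries and 1074 and 1144 in Dis3-/- libraries. The Dis3-/- libraries were then the lower ones. All tested genes had a median log2(TPM + 1) change of -0.106, and TPM sums of every class are to be read beside it. The Dis3-/- sums were thus higher with Slc25a5 and not without it.

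Among less abundant mitochondrial carriers, Slc25a39, which brings glutathione into mitochondria, rose, with 35.0 and 32.7 CPM in the wild-type and 49.5 and 49.7 CPM in the Dis3-/- libraries (log2 fold change 0.55 ± 0.13, edgeR adjusted p = 0.00677). Slc25a15, the ornithine carrier of the urea cycle, stood at 34.4 and 30.3 against 44.1 and 44.7 CPM (log2 fold change 0.45 ± 0.13, edgeR adjusted p = 0.0253). For Slc25a15 the edgeR adjusted p was 0.149 (0.36) without wild-type replicate 2 and 0.0818 (0.45) without Dis3-/- replicate 2. Both had Dis3-/- replicates that nearly coincided. Slc25a27, known as uncoupling protein UCP4 (chromosome 17, 43637739 to 43667214), fell, with 31.1 and 27.6 CPM in the wild-type and 14.6 and 17.0 CPM in the Dis3-/- libraries (log2 fold change -0.89 ± 0.17, edgeR adjusted p = 0.0025). Slc25a23, a calcium-dependent carrier that exchanges ATP-Mg for phosphate, stood at 45.1 and 42.7 against 32.5 and 27.8 CPM (log2 fold change -0.54 ± 0.14, edgeR adjusted p = 0.0122). For Slc25a23 the edgeR adjusted p was 0.0548 (-0.50) without wild-type replicate 1 and 0.0842 (-0.43) without Dis3-/- replicate 2. Slc25a45 also fell, at 66.8 and 55.9 against 46.8 and 45.2 CPM (log2 fold change -0.42 ± 0.12, edgeR adjusted p = 0.0262). For Slc25a45 the edgeR adjusted p was 0.231 (-0.28) without wild-type replicate 1 and 0.0828 (-0.39) without Dis3-/- replicate 2. Of these, Slc25a27 was called in all 12 other settings.

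**Figure D3:**
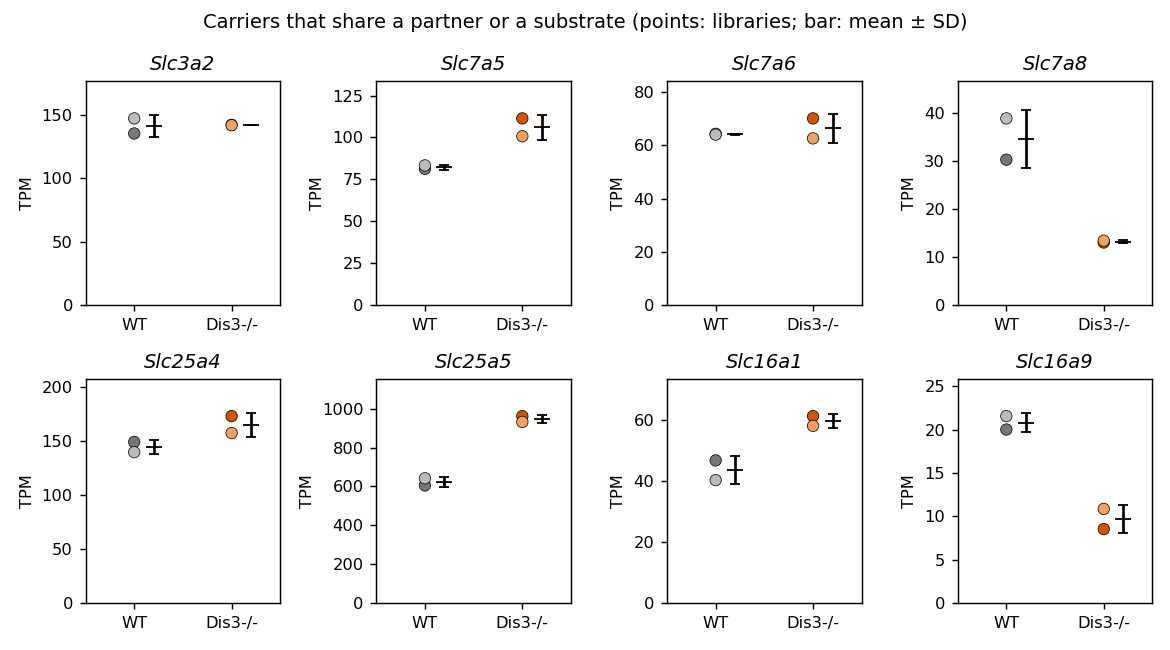
TPM (y axis, starting at 0) of 8 carriers in each library by genotype (x axis), with mean ± SD over 2 libraries beside the points; Slc3a2 is the common heavy chain, Slc7a5, Slc7a6 and Slc7a8 its light chains, Slc25a4 and Slc25a5 the translocases, and Slc16a1 and Slc16a9 monocarboxylate family members. Slc7a5, Slc25a5 and Slc16a1 lie higher in Dis3-/- libraries and Slc7a8 and Slc16a9 lower, while Slc3a2 and Slc7a6 overlap.

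Zinc carriers numbered 16, of which 1 rose, 1 fell and 14 did not pass, with a median of -0.036 (0.027 without wild-type replicate 1). All tested genes gave 12.7% higher and 10.2% lower. Slc39a7, which releases zinc from the endoplasmic reticulum into the cytosol (chromosome 17, 34028266 to 34031690), stood at 75.5 and 71.3 CPM in the wild-type and 91.7 and 90.8 CPM in the Dis3-/- libraries (log2 fold change 0.31 ± 0.10, edgeR adjusted p = 0.0307). Slc30a7, which loads zinc into the Golgi, stood at 141 and 131 CPM in the wild-type and 118 and 99.1 CPM in the Dis3-/- libraries (log2 fold change -0.32 ± 0.10, edgeR adjusted p = 0.0301). It was among the 13 carriers with a fractional count. The calls did not outlast the loss of some single libraries, nor DESeq2: the edgeR adjusted p of Slc39a7 was 0.0624 (0.36) without wild-type replicate 1, 0.158 (0.27) without wild-type replicate 2, 0.0751 (0.31) without Dis3-/- replicate 1 and 0.0711 (0.32) without Dis3-/- replicate 2. That of Slc30a7 was 0.154 (-0.27) without wild-type replicate 1 and 0.246 (-0.20) without Dis3-/- replicate 2. The 6 exporters of the Slc30 family all had a log2 fold change below 0 (median -0.15), but 3 of the 6 were above 0 without wild-type replicate 2. The 10 Slc39 importers had a median of 0.028, which was -0.081 on log2(TPM + 1). Slc30a1, the surface zinc exporter that metals induce, differed by less than its error (log2 fold change -0.021 ± 0.17, edgeR adjusted p = 0.947, 95% interval -0.39 to 0.34). Slc39a10, an importer at the plasma membrane, did not pass (log2 fold change 0.28 ± 0.12, edgeR adjusted p = 0.1). The class summed to 595 and 569 in wild-type libraries and 547 and 555 in Dis3-/- libraries (TPM), where all tested genes had a median log2(TPM + 1) change of -0.106. Of the metallothionein, ferritin and iron uptake genes listed beside them, 11 of 14 were tested and none was called by edgeR or DESeq2, with 3 at an unadjusted p under 0.05 (median -0.10).

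The 5 carriers of other metals and heme had no call by edgeR or DESeq2, with 1 at an unadjusted p under 0.05 and a median of -0.022. Slc48a1, which moves heme out of lysosomes and was their most abundant member per length, had log2 fold change -0.022 ± 0.083, edgeR adjusted p = 0.88 (95% interval -0.20 to 0.16). Of its exon bases, 29 (1.14%) are shared with Hdac7 on the opposite strand.

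Carboxylate carriers, 5 in all, held a rise and a fall. Slc16a1, the lactate and pyruvate carrier MCT1 (chromosome 3, 104638664 to 104658462), stood at 84.6 and 74.2 CPM in the wild-type and 123 and 113 CPM in the Dis3-/- libraries, with means of 79.4 ± 7.36 against 118 ± 6.71 CPM (mean ± SD, n = 2) (log2 fold change 0.57 ± 0.10, edgeR adjusted p = 0.00117). Slc16a9, of the same family (chromosome 10, 70245276 to 70285951), stood at 29.0 and 31.8 CPM in the wild-type and 13.6 and 16.9 CPM in the Dis3-/- libraries, with means of 30.4 ± 1.98 against 15.3 ± 2.30 CPM (mean ± SD, n = 2) (log2 fold change -0.99 ± 0.18, edgeR adjusted p = 0.00143). Genotypes did not overlap for either gene. The TPM ratio of Slc16a1 to Slc16a9 was 2.33 and 1.86 in wild-type libraries and 7.17 and 5.34 in Dis3-/- libraries. Its separation of the genotypes follows from the opposite moves of both genes and adds no evidence. The class sum was 132 and 125 in wild-type libraries and 125 and 128 in Dis3-/- libraries (TPM), so genotypes overlapped in the total.

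Among 8 sugar carriers, 1 rose and 1 fell. Slc5a3, which takes up the osmolyte myo-inositol with sodium, stood at 76.1 and 80.7 CPM in the wild-type and 103 and 134 CPM in the Dis3-/- libraries (log2 fold change 0.60 ± 0.12, edgeR adjusted p = 0.00266), and without Dis3-/- replicate 2 at 0.39 (edgeR adjusted p = 0.0256). The Slc5a3 call was lost with limma on log2(TPM + 1) (adjusted p = 0.145) and on log2(TPM + 0.1) (0.129). It was also lost with limma on log2(TPM + 1) without a filter (adjusted p = 0.206). Slc5a3 shares 159 exon bases, 1.46% of its exons, with Mrps6 on the same strand, and some of its counts were fractional. Slc45a4, a member of the proton-coupled sugar carrier family (chromosome 15, 73577418 to 73645757), stood at 117 and 123 CPM in the wild-type and 81.3 and 81.5 CPM in the Dis3-/- libraries (log2 fold change -0.56 ± 0.09, edgeR adjusted p = 6.85e-04), and its Dis3-/- replicates differed by less than 1 CPM. Slc2a3, a glucose importer, differed by less than its error (log2 fold change -0.019 ± 0.08, edgeR adjusted p = 0.894, 95% interval -0.19 to 0.15), and Slc50a1, the most abundant of the class per length, did not pass (log2 fold change -0.11 ± 0.13, edgeR adjusted p = 0.563). The class summed to 399.9 and 403 in wild-type libraries and 351 and 349 in Dis3-/- libraries (TPM), without overlap. On log2(TPM + 1) the median change of all tested genes was -0.106.

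The nucleotide sugar class, made of Slc35 genes and Slc33a1, had few calls, 1 higher and 1 lower of 22 (median 0.0076, or -0.111 on log2(TPM + 1)). These were 4.55% each, against 12.7% and 10.2% of all tested genes. The class was set by family, so its name does not give the substrate of each member, Slc35g1 and Slc33a1 included. Slc35g1 stood at 24.5 and 28.1 against 40.1 and 36.0 CPM (log2 fold change 0.53 ± 0.15, edgeR adjusted p = 0.0192). For Slc35g1 the edgeR adjusted p was 0.112 (0.44) without wild-type replicate 1 and 0.0859 (0.46) without Dis3-/- replicate 1. Slc35d2, a Golgi carrier of nucleotide sugars, stood at 13.1 and 18.3 against 9.59 and 6.88 CPM (log2 fold change -0.93 ± 0.26, edgeR adjusted p = 0.0201). For Slc35d2 the edgeR adjusted p was 0.166 (-0.68) without wild-type replicate 2 and 0.119 (-0.70) without Dis3-/- replicate 2. Both calls thus rested on particular libraries. Slc35a4, the most abundant per length, did not pass (log2 fold change 0.31 ± 0.11, edgeR adjusted p = 0.0511).

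Organic ion, amine and choline carriers fell in 3 of 11 cases and none was called higher (DESeq2 also called 3, and none stood above 0 at an unadjusted p under 0.05), with a median of -0.23 that stayed below 0 in every setting tried. The falls were 27.3% of this small class, where edgeR called 10.2% of all tested genes lower and 12.7% higher. Slc18a2, the vesicular monoamine transporter VMAT2 that packs serotonin, histamine and other amines into granules (chromosome 19, 59260878 to 59296012), had the smallest adjusted p of the carriers. It stood at 327 and 314 CPM in the wild-type and 176 and 176 CPM in the Dis3-/- libraries, with means of 320.3 ± 8.95 against 176 ± 0.224 CPM (mean ± SD, n = 2) (log2 fold change -0.86 ± 0.076, edgeR adjusted p = 6.80e-06). Slc44a2, a choline carrier (chromosome 9, 21320719 to 21355028), stood at 214 and 213 CPM in the wild-type and 146 and 148 CPM in the Dis3-/- libraries (log2 fold change -0.54 ± 0.079, edgeR adjusted p = 3.28e-04). For both genes the replicates of a genotype lay far closer together than the genotypes. Slc22a3, the organic cation transporter OCT3, stood at 104 and 95.4 against 83.7 and 54.9 CPM (log2 fold change -0.53 ± 0.15, edgeR adjusted p = 0.0202). For Slc22a3 the edgeR adjusted p was 0.0502 (-0.46) without wild-type replicate 1, 1.04e-07 (-0.86) without Dis3-/- replicate 1 and 0.166 (-0.25) without Dis3-/- replicate 2. The class summed to 609 and 584 in wild-type libraries and 397 and 391 in Dis3-/- libraries (TPM), and without Slc18a2 and Slc44a2 to 246 and 236 in wild-type libraries and 200.1 and 187 in Dis3-/- libraries. Genotypes did not overlap in either sum.

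Anion and cation-chloride carriers also fell in 3 of 11 cases, and none was called higher or stood above 0 at an unadjusted p under 0.05 in edgeR (DESeq2 called 1). Their median was -0.21 and stayed below 0 in every setting. The falls were 27.3% of this small class, against 10.2% lower and 12.7% higher over all tested genes. Slc26a11, a sulfate carrier, stood at 24.5 and 15.9 against 6.73 and 12.8 CPM (log2 fold change -1.04 ± 0.29, edgeR adjusted p = 0.0184). For Slc26a11 the edgeR adjusted p was 0.149 (-0.69) without wild-type replicate 1, 0.0602 (-0.66) without Dis3-/- replicate 1 and 0.0018 (-1.58) without Dis3-/- replicate 2. Slc4a7, a sodium bicarbonate cotransporter, stood at 109 and 95.6 against 78.9 and 83.2 CPM (log2 fold change -0.34 ± 0.10, edgeR adjusted p = 0.0262). For Slc4a7 the edgeR adjusted p was 0.219 (-0.24) without wild-type replicate 1 and 0.0815 (-0.29) without Dis3-/- replicate 1. Neither gene was called in all 12 other settings. Slc20a1, a phosphate importer and the most abundant per length, did not pass (log2 fold change -0.21 ± 0.094, edgeR adjusted p = 0.12). The class summed to 426 and 418 in wild-type libraries and 320.3 and 327 in Dis3-/- libraries (TPM), without overlap.

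Slc14a1, the urea carrier known as the Kidd antigen, stood at 52.3 and 56.2 CPM in the wild-type and 24.2 and 31.1 CPM in the Dis3-/- libraries (log2 fold change -0.97 ± 0.14, edgeR adjusted p = 3.87e-04), and its call held in all 12 other settings. Lipid and vitamin carriers had 1 rise and 1 fall among 9. Slc19a2, a thiamine importer, stood at 28.8 and 36.8 against 42.9 and 54.6 CPM (log2 fold change 0.58 ± 0.16, edgeR adjusted p = 0.018). For Slc19a2 the edgeR adjusted p was 0.12 (0.41) without wild-type replicate 1 and 0.154 (0.39) without Dis3-/- replicate 2. Slc27a1, a fatty acid transport protein, stood at 48.4 and 43.0 against 31.0 and 34.4 CPM (log2 fold change -0.48 ± 0.14, edgeR adjusted p = 0.0199). For Slc27a1 the edgeR adjusted p was 0.128 (-0.39) without wild-type replicate 1 and 0.0874 (-0.41) without Dis3-/- replicate 1. Slc19a1, the folate carrier, did not pass (log2 fold change 0.22 ± 0.14, edgeR adjusted p = 0.278).

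None of the 8 sodium, proton and calcium exchangers was called by edgeR or DESeq2, with 2 at an unadjusted p under 0.05 in edgeR (median -0.084, or 0.041 less the median of genes of like length). Slc9a5 had the highest log2 fold change of all carriers, from 41 and 31 counts in wild-type libraries and 46 and 83 in Dis3-/- libraries (log2 fold change 0.94 ± 0.33, edgeR adjusted p = 0.053). The rule also took 4 genes whose symbols start with Slc but that are no carriers, the scaffold gene Slc9a3r1, Slc7a6os, Slc4a1ap and the pseudogene Slc2a4rg-ps. None of them was called by edgeR or DESeq2, and 0 stood at an unadjusted p under 0.05. Slc9a3r1 had log2 fold change -0.045 ± 0.12, edgeR adjusted p = 0.828.

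**Figure D4:**
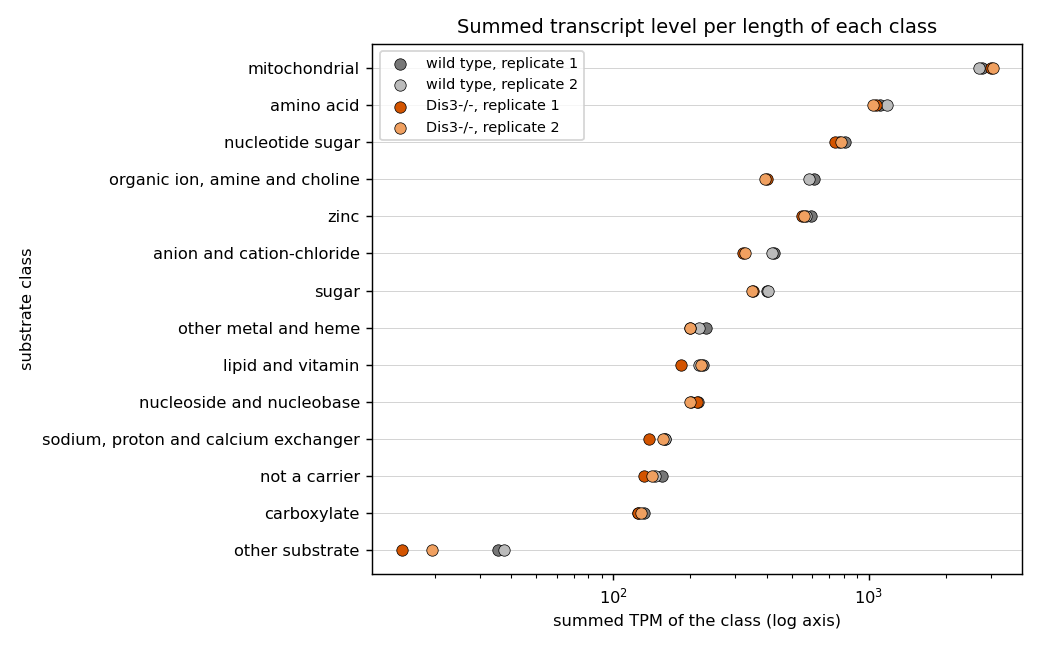
Summed TPM of each substrate class (x axis, log scale) in the 4 libraries, wild type in greys and Dis3-/- in oranges. The mitochondrial class has the highest sums and is higher in Dis3-/- libraries, while the organic ion and anion classes are lower in them and the nucleoside and carboxylate classes overlap. Over all tested genes the median log2(TPM + 1) change was -0.106.

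Carrier genes with other names and the partners of carriers were read from a list of 42 genes. Of these, 35 were tested, 5 rose and 4 fell (median 0.089, with 3 called by DESeq2). The share called by edgeR was near the 23.0% of all tested genes. Mtch2, of the outer mitochondrial membrane, stood at 54.1 ± 0.870 against 75.0 ± 2.07 CPM (log2 fold change 0.47 ± 0.11, edgeR adjusted p = 0.00596). Vdac3, a porin of the same membrane, stood at 58.8 ± 4.08 against 80.2 ± 5.32 CPM (log2 fold change 0.45 ± 0.11, edgeR adjusted p = 0.00937), with an edgeR adjusted p of 0.059 without wild-type replicate 2. The mitochondrial pyruvate carrier subunit Mpc2 (log2 fold change 0.62 ± 0.19, edgeR adjusted p = 0.0325), the serine carrier Sfxn1 (log2 fold change 0.26 ± 0.083, edgeR adjusted p = 0.0369) and Nptn, a chaperone of monocarboxylate carriers (log2 fold change 0.45 ± 0.14, edgeR adjusted p = 0.0299), were the others. The falls were in Mfsd6 with 64.0 ± 7.67 against 45.9 ± 3.57 CPM (log2 fold change -0.48 ± 0.13, edgeR adjusted p = 0.0141), the sphingosine-1-phosphate exporters Spns2 with 376 ± 6.81 against 294 ± 45.8 CPM (log2 fold change -0.35 ± 0.093, edgeR adjusted p = 0.0147) and Mfsd2b (log2 fold change -1.75 ± 0.49, edgeR adjusted p = 0.02), and Spns3 (log2 fold change -0.52 ± 0.14, edgeR adjusted p = 0.0172). The edgeR adjusted p of Mfsd6 was 0.131 without wild-type replicate 1, and that of Spns2 0.113 (-0.20) without Dis3-/- replicate 2. That of Mpc2 was 0.173 without wild-type replicate 2, 0.0779 without Dis3-/- replicate 1 and 0.072 without Dis3-/- replicate 2. That of Sfxn1 was 0.205 without wild-type replicate 1, 0.0521 without wild-type replicate 2, 0.114 without Dis3-/- replicate 1 and 0.0566 without Dis3-/- replicate 2, and that of Nptn 0.169 without wild-type replicate 2 and 0.147 without Dis3-/- replicate 2. For Mfsd2b it was 0.282 without wild-type replicate 1 and 0.0766 without Dis3-/- replicate 1 (log2 fold change -1.14 without wild-type replicate 1), and for Spns3 0.1 without wild-type replicate 1 and 0.0899 without Dis3-/- replicate 2.

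Calls differed in how firmly they held. Of the 32 called carriers, 9 were called in all 12 other settings (tests, scalings, a block and single libraries left out), 23 lost the call in at least 1, and 0 turned direction. The 9 were Slc25a5, which rose, and 8 that fell, among them Slc7a8, Slc38a9, Slc14a1, Slc25a27, Slc18a2, Slc45a4 and Slc44a2. Slc7a5, Slc16a1 and Slc16a9 lost the call only with limma on log2(TPM + 1) without a filter (adjusted p = 0.062, 0.0739 and 0.0519). Slc25a39 lost it there (0.0517) and with DESeq2 (adjusted p = 0.0515).

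**Figure D5:**
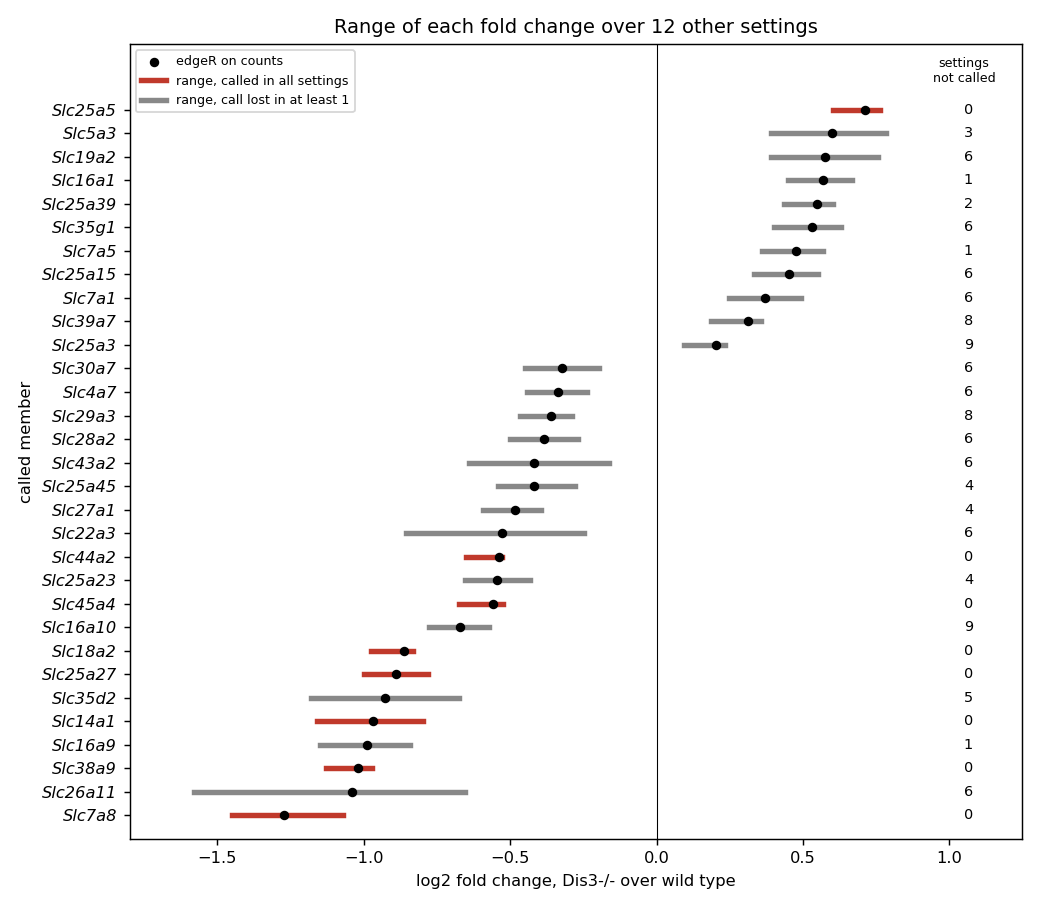
For each called carrier named in the text (y axis), the black point is the edgeR log2 fold change (x axis, Dis3-/- over wild type) and the bar its range over the 12 other settings, red where the gene was called in all of them; the numbers at the right count the settings without a call. No bar crosses 0, 8 bars are red, and Slc16a10 and Slc25a3 lost the call most often, in 9 settings.

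Promoters of 300 bases (250 before and 50 after the start) were found in RefSeq (GRCm38.p6) for 116 of the 158 carriers, 153 promoters in all, among 32851 promoters of all genes. Their median GC content was 62.0%, against 52.7% for all promoters, and was 71.2% for 12 promoters of genes that rose and 60.3% for 20 of genes that fell. The GC box GGGCGG, searched on both strands like all motifs here and independently of them, so that matches may share bases, was in 74.5% of carrier promoters and 35.7% of all, in 11 of the 12 of genes that rose and 15 of the 20 of genes that fell. The E-box CACGTG was in 15% of carrier promoters and 7.15% of all, in 2 of the 12 and 1 of the 20. The ATF4 element TGATGNAA was in 1.31% and 3.97%, and in 0 of the 12 and 0 of the 20. Of the metal response cores, TGCGCNC was in 26.8% and 15.4% and TGCACNC in 15.7% and 12.6%; the 17 promoters of zinc carriers held them in 4 and 6 cases. Carriers were chosen by a minimum of counts, while the promoters of all genes include genes not expressed here. Whether carriers differ from other expressed genes in these shares was not tested. A match describes letters only, and no test was made.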

How the data were processed

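Raw estimates of reads per gene (expected counts) and TPM (abundance per length, each column summing to 1000000) were deposited by the authors for 24411 genes in 4 libraries, per the file headers. The submitters' processing notes name the genome build mm10, RSEM (1.3.3), STAR (2.7.8a) and Trim Galore (0.6.6). Tool roles, gene models and strandedness were not given in the sources used here. Of the values deposited, 145 carriers had whole expected counts in all libraries and 13 a fractional one, where reads shared with other genes were divided by estimate.

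Rounded expected counts were tested in R 4.3.3 by edgeR 4.0.16 (filterByExpr with minimum count 10 and total 15, TMM, glmQLFit, 2-sided glmQLFTest, 12244 genes, Benjamini-Hochberg threshold 0.05). The SE is the log2 fold change divided by the root of the F statistic, and 95% intervals use the same SE. CPM are on TMM-scaled library sizes, where 3 counts, the limit that a count of 0 allows, are 0.432 to 0.505 CPM; such limits cover counting error only. Replicates correlated at 0.986 (log2(CPM + 1), over genes, which are not independent), libraries of different genotype at 0.963 to 0.965, and no files were identical. The script was tested on simulated data.

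The carriers, substrate classes and lists were chosen with earlier results of these data known; Slc4a1ap was set among genes that are no carriers after its name was seen in the table. Classes follow the family, with exceptions by gene, and are described by counts and medians only. Named by rule were, per class, up to 3 called genes a direction by p, the 10 largest called rises and falls with at least 10 CPM and no overlap, the gene of highest mean TPM, and up to 4 called genes a list; the other called list genes are named for completeness. Other genes, among them Slc43a2, Slc25a3, Slc25a4, Slc3a2, Slc7a6 and Slc29a1, were named after their values were seen. Coordinates come from RefSeq GRCm38.p6, which all 158 symbols matched, and exon overlaps from GENCODE on mm10. Alternatives were DESeq2 1.42.0, limma 3.58.1 on log2(TPM + 1) and log2(TPM + 0.1), other filters and size factors, a replicate block, each library left out, sums of 100 and 500, and a correction for length in 20 bins. Some genes are counted in the totals but not reported here by name.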

Additional observations from a re-analysis of the deposited data

How the results depend on the processing

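With the DESeq2 Wald test, 4 carriers were called higher and 10 lower, by class 1 and 2 of the amino acid, 1 and 1 of the mitochondrial, 0 of the zinc and 0 lower of the nucleoside carriers; all genes gave 919 higher and 651 lower, against 1561 and 1250 with edgeR. With limma on log2(TPM + 1), counts were 4 higher and 13 lower over all carriers, 1 and 2 for amino acids, 2 higher for mitochondria, 0 for zinc and 0 lower for nucleosides, and medians -0.147 over all carriers, -0.186 for amino acids, -0.151 for nucleosides, -0.0376 for mitochondria and -0.144 for zinc. With log2(TPM + 0.1), 4 were higher over all carriers, 1 and 2 for amino acids, 2 higher for mitochondria, 0 for zinc and 0 lower for nucleosides, with medians of -0.15, -0.196, -0.159, -0.0382 and -0.146 in the same order. In both of these limma fits the mitochondrial carriers Slc25a23, Slc25a27 and Slc25a45 were also called lower. Without a filter on TPM, 1 was higher and 8 lower over all carriers, 0 and 2 for amino acids, 1 and 1 for mitochondria, 0 for zinc and 0 lower for nucleosides, with medians of -0.147, -0.186, -0.151, -0.0376 and -0.144. On these TPM scales the median of all tested genes was -0.106, -0.112 and -0.0868, and all genes gave 805 higher and 973 lower, 890 and 1102, and 479 and 471. Without a filter on counts, or with robust empirical Bayes, 1 nucleoside carrier was called higher. A sum of at least 100 gave the nucleoside class a median of -0.359. Less the median of genes of like length, medians were -0.0193 over all carriers and 0.0183 for nucleosides. Restricted to carriers with whole counts, a choice made after seeing the data, 0 zinc carriers were lower. The cause of these differences was not tested.

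With single libraries left out, calls ranged from 7 to 11 higher and 12 to 19 lower over all carriers. For amino acids they ranged from 1 to 2 higher and 2 to 4 lower, for mitochondria from 2 to 4 and 1 to 3, for zinc from 0 to 1 and 0 to 1, and for nucleosides from 0 to 2 and 0 to 1. Medians ranged from -0.0656 to -0.0279 over all carriers, -0.157 to -0.0207 for amino acids, 0.0152 to 0.0704 for mitochondria, -0.0384 to 0.0275 for zinc and -0.0613 to 0.0322 for nucleosides. Where a genotype was left with 1 library, that library was assumed to vary like the others. Fewer of all tested genes were then called in each direction than with every library. Among the genes named, direction turned for Slc9a3r1 (-0.163 to 0.0868 with single libraries left out) and Slc50a1 (-0.235 to 0.00761 likewise), none of them called. With the replicate number as a block, 1 nucleoside carrier was called lower, Slc16a10, Slc25a3 and Slc29a3 lost their calls (edgeR adjusted p = 0.0562, 0.0812 and 0.0576), and all genes gave 1463 higher and 1151 lower. Replicates share only a number across genotypes, and deviations of same-numbered libraries correlated at -0.0269 over tested genes. Across tested genes the log2 fold change and effective length had a Spearman correlation of -0.247, and across the carriers -0.138. Below 3 counts (0.432 to 0.505 CPM) a level could not be told from 0.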

Other observations

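Below the sum of 200 counts, 49 further Slc genes were tested, and 1 of them was called higher and 0 lower (2.04%). Of all tested genes 23.0% were called, and of those with a sum of at least 200 counts 25.9%. Genes below that sum were thus called less often in general, so the 2.04% is not comparable with the share of the 158 carriers. The called Slc gene was Slc6a17, a synaptic vesicle carrier of neutral amino acids, with 11 and 12 counts in wild-type libraries and 28 and 28 in Dis3-/- libraries (log2 fold change 1.37 ± 0.46 SE, edgeR adjusted p = 0.0465). Slc6a17 lies outside the rule for named genes and was chosen after its values were seen.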
